A study of Mus musculus with 13 samples.

Results

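The pre-TCR and CD3 chains are the subunits through which an immature thymocyte tests its first rearranged T cell receptor chain. The 5 genes chosen by symbol for this account were Ptcra, Cd3e, Cd3d, Cd3g and Cd247, of 47937 genes in the count table. All 5 passed the filter on low counts in every comparison. RNA was sequenced from DN3 and DN4 thymocytes freshly sorted from 6-week-old C57BL/6 mice. Every mouse carried Lck-Cre+, in which the promoter of Lck, a T lineage kinase gene, drives the Cre recombinase. WT;Lck-Cre+ mice (Wt) had unfloxed Opa1 and Opa1fl/fl;Lck-Cre+ mice (KO-labelled) had both Opa1 alleles floxed, Opa1 being a mitochondria-shaping protein of the inner membrane. The 13 libraries were 3 Wt DN3, 3 KO-labelled DN3, 4 Wt DN4 and 3 KO-labelled DN4 libraries. By the numbers in the sample names they came from 7 mice, of which 6 gave both stages. The study asked what changes in thymocytes at β-selection when Opa1 is deleted, and the comparisons here follow the receptor chains across that step and between the genotypes.

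At the DN3 stage a thymocyte that has rearranged its Tcrb locus in frame pairs the new β chain with the invariant pre-Tα chain, the product of Ptcra, and the pair reaches the surface with the CD3 subunits as the pre-TCR. CD3ε pairs with CD3γ or with CD3δ, and the CD247 (CD3ζ) homodimer completes the complex. The CD3 and CD247 tails carry the tyrosine motifs (ITAMs) that LCK phosphorylates and ZAP70 binds. Signals from the pre-TCR drive the passage from DN3 to DN4, which is called β-selection, and pre-Tα is later replaced by a rearranged TCRα chain while the CD3 subunits stay in the mature receptor.

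The genes lie at 3 loci in the GRCm38 build with GENCODE M21 annotation. Ptcra is on the minus strand of chr17:46755663-46763712 and has 4 exons after merging its transcripts. Cd3g (minus strand, chr9:44969572-44980431), Cd3d (plus strand, chr9:44981786-44987339) and Cd3e (minus strand, chr9:44998740-45009627) are neighbours. Cd3g and Cd3d are transcribed away from each other from start sites 1355 bases apart, and 11400 bases separate the end of Cd3d from Cd3e. Cd247 is on the plus strand of chr1:165788681-165877277, and 3007 of its exon bases lie over exons of Pou2f1 on the opposite strand. Whether the counting used strand is not given in the sources used here, so reads of Cd247 and Pou2f1 in that stretch may not be separable.

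The sequences just upstream of Ptcra, Cd3g and Cd3d are shown because Ptcra and Cd3g moved together between the stages while Cd3d, which starts next to Cd3g, did not move with them. Each line gives the 250 bases before the RefSeq start site (GRCm38.p6), read 5′ to 3′ on the strand of the gene, at chr17:46763713-46763962 for Ptcra, chr9:44980432-44980681 for Cd3g and chr9:44981536-44981785 for Cd3d, and capitals mark E boxes (CANNTG), the motif bound by E proteins such as TCF3 (E2A) and TCF12 (HEB).
Ptcra: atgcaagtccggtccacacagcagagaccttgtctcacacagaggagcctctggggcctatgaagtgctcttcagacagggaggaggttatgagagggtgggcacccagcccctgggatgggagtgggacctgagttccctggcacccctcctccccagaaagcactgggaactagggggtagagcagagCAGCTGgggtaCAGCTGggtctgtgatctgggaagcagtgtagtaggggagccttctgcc
Cd3g: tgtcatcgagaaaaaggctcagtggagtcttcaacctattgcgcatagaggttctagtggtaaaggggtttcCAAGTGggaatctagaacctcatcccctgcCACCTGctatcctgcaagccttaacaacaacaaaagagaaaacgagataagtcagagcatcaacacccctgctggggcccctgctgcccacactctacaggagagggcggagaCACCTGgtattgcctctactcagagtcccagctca
Cd3d: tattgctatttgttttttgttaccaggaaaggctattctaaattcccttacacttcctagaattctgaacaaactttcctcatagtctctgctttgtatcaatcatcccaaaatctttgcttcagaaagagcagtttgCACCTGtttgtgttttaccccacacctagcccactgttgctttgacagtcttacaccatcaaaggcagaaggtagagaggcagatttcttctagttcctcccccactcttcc
The Ptcra window held 2 E boxes, both CAGCTG, which begin 60 and 49 bases before the start. In the Cd3g window there were 3, namely CAAGTG at 178 bases, and CACCTG at 148 and at 35 bases before the start. Cd3d had 1, CACCTG, at 112 bases. Of 32851 mouse promoter windows of this length, 66.2% held at least 1 E box, 31.8% at least 2 and 12.2% at least 3. The core TGGGAA, bound by the NOTCH effector RBPJ, was searched on both strands and occurred 2 times upstream of Ptcra (84 and 32 bases before the start), 1 time upstream of Cd3g (174 bases, where it shares 2 bases with an E box) and in neither orientation upstream of Cd3d. Of the other 2 chains, Cd3e, which was not called, held 1 E box (57 bases before the start) and 1 TGGGAA (123 bases), and Cd247, which was higher in DN4, held as many E boxes as Ptcra, 2 (191 and 10 bases), and no TGGGAA. It was present in 21.6% of all windows, and 2.77% held at least 2. The RUNX core TGTGGT, held by 14.05% of windows on either strand, was in none of the windows of the 5 genes. A match in these letters is a description of the window and no measure of binding.

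The libraries held 5926848 to 14148661 counts, with a median of 10023044. The Wt DN3 library of mouse WT05 stood apart: 8 genes, led by Gm42418 and Lars2, took 41.7% of its counts, against 0.813% to 2.51% in the other 12 libraries. All 5 chains had their lowest DN3 level in that library, so values without it are given below. Il2ra, which encodes the CD25 used to define DN3, had a log2 fold change from DN3 to DN4 of -6.39 in Wt and -6.01 in KO-labelled mice (adjusted p = 1.64e-05 and 0.000377). Opa1 counts did not separate the genotypes (KO-labelled minus Wt log2 difference -0.12 in DN3 and -0.08 in DN4, adjusted p = 0.99996 and 0.945), and the floxed exons cannot be read apart from the rest of the gene in these counts. The paper reports less OPA1 protein in thymocyte lysates of Opa1fl/fl;Lck-Cre+ mice by immunoblot. It also reports fragmented mitochondria, disrupted cristae and lower respiration of DN3 cells in these mice. Markers of other cells also differed between stages. The summed level of 5 B-cell markers was 20.9 to 53.4 CPM (counts scaled to the TMM-adjusted size of each library) in DN3 and 226 to 2877 CPM in DN4, with no marker at 0 in every library of a group. The summed level of 5 markers of immature single-positive (ISP) and double-positive (DP) thymocytes went from 122–176 CPM to 385–2999 CPM. For 5 markers of mature T cells it went from 105–165 CPM to 188–544 CPM, with Cd40lg at 0 in every Wt DN3 library. For 5 markers of NK and innate lymphoid cells it went from 0.495–2.34 CPM, with Ncr1 and Klrb1c at 0 in every DN3 library, to 10.8–30.3 CPM with all 5 detected. The sum of 4 plasmacytoid dendritic cell markers, of which Ccr9 is also a thymocyte gene, went from 181–447 CPM with Siglech at 0 in every DN3 library to 481–1037 CPM. That of 5 γδ T cell markers, which include Trdc and Tcrg-C1, overlapped between stages, at 609–1031 CPM in DN3 and 606–1867 CPM in DN4. The sum of 6 DN3-stage markers went from 1985–2781 CPM to 446–1930.2 CPM. In its flow cytometry the study gated DN subsets on lineage-negative thymocytes without CD4 and CD8. The lineage antibodies of that gate and the gate of the sort for RNA are not given in the sources used here. DN4 cells on their way to the ISP and DP stages can express ISP and DP markers themselves. The part of other cells in the changes between stages was not tested beyond the fits without B-cell-rich libraries given below.

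In DN3 cells Ptcra stood at 133, 144 and 112 CPM in mice KO45, KO49 and KO51 of the KO-labelled group, and at 76.1, 136 and 157 CPM in Wt mice WT05, WT46 and WT48. The DN4 libraries held 32.6, 41.6 and 52.1 CPM in the same KO-labelled mice. Wt DN4 libraries held 25.7, 34.1, 36.9 and 17.9 CPM in WT05, WT40, WT46 and WT48. No DN4 library reached the lowest DN3 library, in either genotype. The means were 123 ± 42.1 CPM (SD, n = 3) in Wt DN3 and 28.6 ± 8.62 CPM (n = 4) in Wt DN4. KO-labelled means were 129.8 ± 16.4 CPM in DN3 and 42.1 ± 9.77 CPM in DN4 (n = 3 each). Ptcra, the one chain of the 5 that is particular to the pre-TCR, had the deepest fall of the set. By edgeR's quasi-likelihood test, its p-values adjusted over all genes (Benjamini-Hochberg), the log2 fold change from DN3 to DN4 was -2.13 ± 0.298 (SE) in Wt, a DN4 level 0.228 times that of DN3 (adjusted p = 0.00178). In KO-labelled mice it was -1.65 ± 0.190, or 0.319 times (adjusted p = 0.00133). Of all genes tested, 1.73% had a lower log2 fold change than Ptcra in Wt and 2.28% in KO-labelled mice.

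Between the stages in Wt, 3 of the 5 chains were called, 1 higher and 2 lower, in a comparison in which 22.9% of 12691 genes were called, 13.4% higher and 9.43% lower (1706 and 1197 genes, against 1386 and 396 with library totals in place of TMM, which moved the median log2 fold change of all genes from -0.03 to 0.16). In KO-labelled mice 2 of the 5 were called, both lower, where 18.6% of 12580 genes were called, 11.2% higher and 7.34% lower. Counts of 5 genes are too few to set the chains apart from that background. The median log2 fold change over the 5 was -0.19 in Wt and -0.16 in KO-labelled mice, against -0.03 and -0.02 over all genes, and the single chains spread widely around it. In bulk samples such as these, fewer cells of a type and less RNA per cell cannot be told apart.

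**Figure D1:**
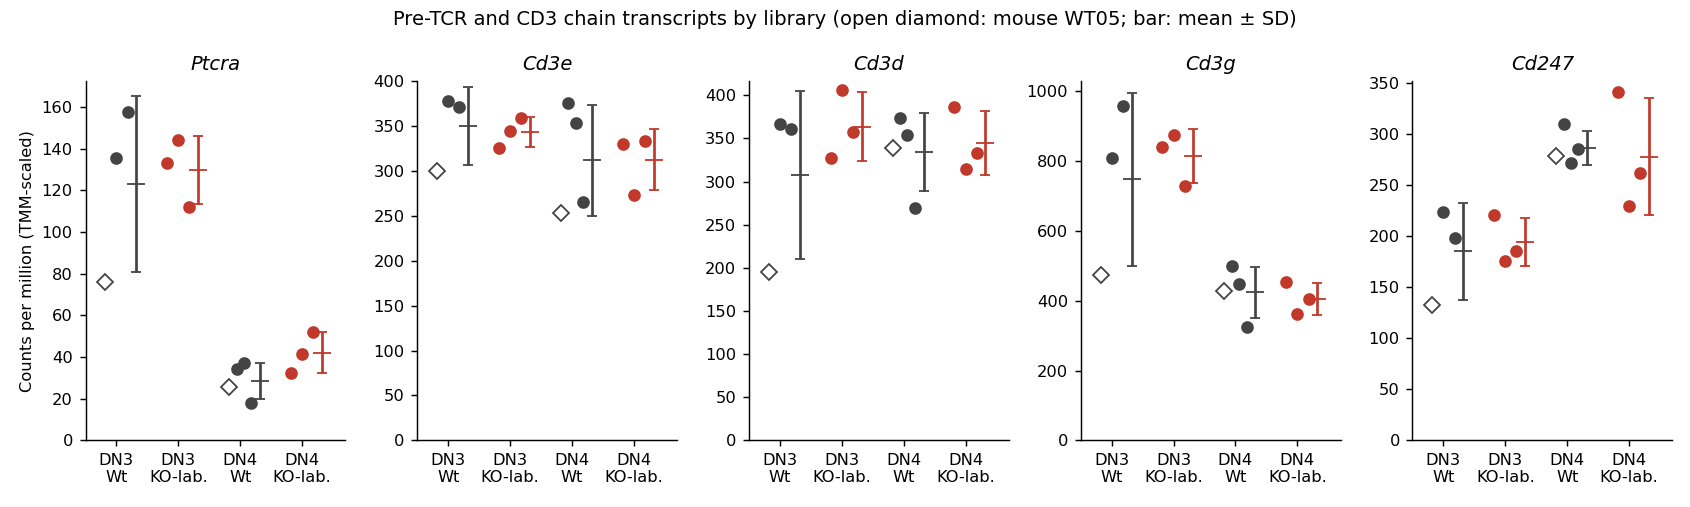
TMM-scaled CPM of each chain (y axis, from 0, a scale of its own in each panel) in the 13 libraries, by stage and genotype (x axis; grey, Wt; red, KO-labelled; open diamond, mouse WT05); bars are mean ± SD. Ptcra falls from 76.1–157 CPM in DN3 to 17.9–52.1 CPM in DN4 with no overlap, Cd3g falls in all 6 mice with both stages but least in WT05, and Cd247 is higher in DN4.

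Cd3g encodes CD3γ, which forms 1 of the 2 CD3ε heterodimers. DN3 levels were 841, 874 and 728 CPM in KO45, KO49 and KO51 and 474, 809 and 959 CPM in WT05, WT46 and WT48. At DN4 the KO-labelled libraries held 452, 361 and 405 CPM. Wt DN4 libraries held 427, 498, 448 and 325 CPM in WT05, WT40, WT46 and WT48. The stages did not overlap in KO-labelled mice, while in Wt the DN3 library of WT05 lay inside the DN4 range. The fall was -1.03 ± 0.130 on the log2 scale in KO-labelled mice (adjusted p = 0.00185) and -0.84 ± 0.242 in Wt (adjusted p = 0.0375). Without the DN3 library of WT05, the Wt DN3 mean was 884 CPM in place of 747 CPM and the Wt change was -1.09 ± 0.171 (adjusted p = 0.00487). In Wt the call was lost with the mouse as a paired block (adjusted p = 0.0604), with library totals in place of TMM (0.277), by limma-voom (0.0501) and in fits that left out the DN3 library of WT46 (0.108) or WT48 (0.135) or the DN4 library of WT05 (0.0975), WT46 (0.0696) or WT48 (0.0783). In KO-labelled mice it was kept in all 15 alternative fits.

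Cd247 encodes the ζ chain, which carries most of the ITAMs of the receptor. It stood at 221, 176 and 186 CPM in DN3 of KO45, KO49 and KO51 and at 132, 224 and 198 CPM in WT05, WT46 and WT48. DN4 levels were 341, 229.5 and 262 CPM in the KO-labelled mice and 278, 309.6, 272 and 285 CPM in WT05, WT40, WT46 and WT48. Every DN4 library lay above every DN3 library of both genotypes. Cd247 rose by 0.60 ± 0.174 on the log2 scale in Wt (adjusted p = 0.0378). In KO-labelled mice the log2 difference was 0.49 ± 0.169 (95% interval 0.10 to 0.88), which did not pass (adjusted p = 0.0837). It passed by DESeq2 (adjusted p = 0.0391) and without a filter on low counts (0.0389). With the mouse as a paired block the calls changed places, at adjusted p = 0.0635 in Wt and 0.00272 in KO-labelled mice. Without the DN3 library of WT05 the Wt value was 0.40 ± 0.1001 (adjusted p = 0.0255). The Wt call was lost with library totals (adjusted p = 0.218), without the DN3 library of WT48 (0.0807) and without the DN4 library of WT05 (0.0812), WT40 (0.0865), WT46 (0.0631) or WT48 (0.0657). Leaving out the DN4 library of KO45 brought the KO-labelled value to 0.29 (adjusted p = 0.227). Pou2f1, whose exons overlap Cd247, had 37.9 to 60.1 CPM in 5 DN3 libraries and 165.9 CPM in the DN3 library of WT05, and 54.3 to 80.5 CPM in DN4, and its part in the Cd247 counts was not tested.

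Cd3e encodes CD3ε, which is shared by both CD3 heterodimers and without which no receptor reaches the surface. In DN3 it stood at 326, 345 and 359 CPM in KO45, KO49 and KO51 and at 299.6, 378 and 371 CPM in WT05, WT46 and WT48. In DN4 the values were 330.5, 273 and 334 CPM in the KO-labelled mice and 253, 375, 354 and 265 CPM in WT05, WT40, WT46 and WT48. The stages overlapped in both genotypes. The log2 difference was -0.19 in Wt (95% interval -0.58 to 0.20, adjusted p = 0.476) and -0.16 in KO-labelled mice (-0.42 to 0.10, adjusted p = 0.364). A fall beyond 0.58 on the log2 scale lies outside both intervals, whereas smaller changes could not be told from none with these libraries.

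Cd3d encodes CD3δ, the partner of CD3ε in the other heterodimer. Its DN3 levels were 327, 406 and 357 CPM in KO45, KO49 and KO51 and 195, 366 and 361 CPM in WT05, WT46 and WT48. In DN4 it stood at 386, 315 and 333 CPM in the KO-labelled mice and at 339, 373, 355 and 269 CPM in WT05, WT40, WT46 and WT48. With the exception of the DN3 library of WT05, all values lay between 269 and 406 CPM. The log2 difference was 0.09 in Wt (95% interval -0.42 to 0.60, adjusted p = 0.818) and -0.10 in KO-labelled mice (-0.38 to 0.18, adjusted p = 0.605).

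**Figure D2:**
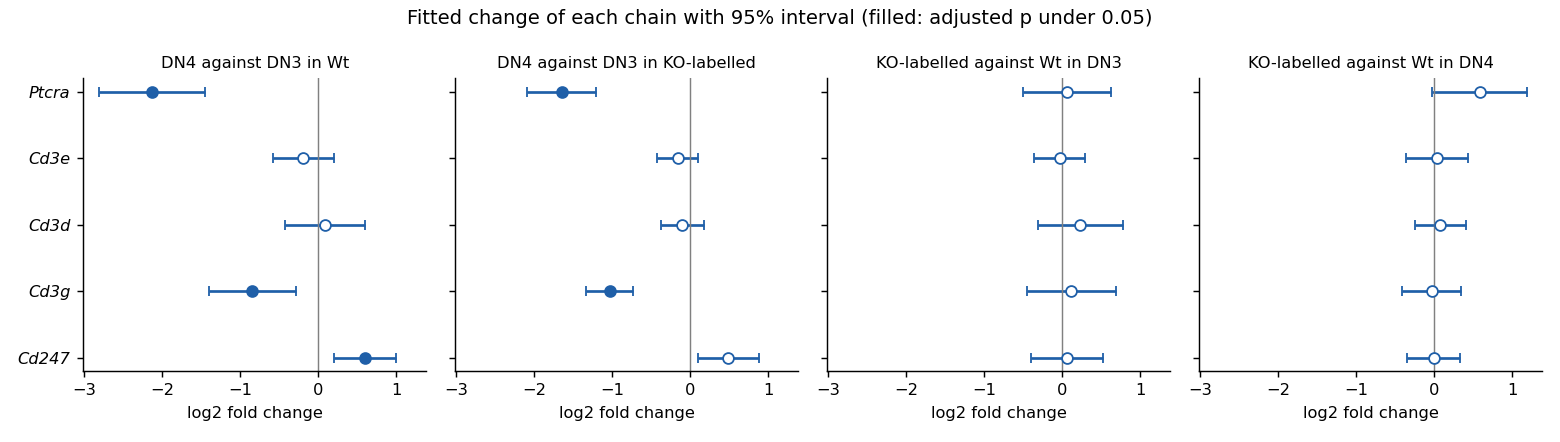
Log2 fold change of each chain (x axis) in 4 comparisons, with 95% intervals from edgeR's quasi-likelihood fit; filled points have an adjusted p under 0.05. Ptcra and Cd3g lie left of 0 in both stage comparisons, Cd247 lies right of 0 in both, and all intervals between the genotypes include 0.

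Ratios between chains within a library do not depend on how libraries are scaled. The Ptcra count was set against the geometric mean of the 4 other chains, with 0.5 added to each count. This log2 ratio changed from DN3 to DN4 by -2.03, -1.39 and -0.96 in KO45, KO49 and KO51 and by -1.94, -1.70 and -2.65 in WT05, WT46 and WT48. It fell in 6 of 6 mice, with a mean log2 change of -1.78 ± 0.577 (SD), a 3.43-fold fall. The exact two-sided sign-flip permutation test over mice gave p = 0.03125, the smallest that 6 mice allow. The change in WT05 lay within the range of the other 5 mice.

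The ratio of Cd3g to Cd3d counts, looked at after the values were seen, had little spread between mice and is given as a description without a test. It was 2.04 to 2.65 in the 6 DN3 libraries and 1.15 to 1.34 in the 7 DN4 libraries, without correction for length. Within mice it changed by -1.14, -0.91 and -0.74 on the log2 scale in KO45, KO49 and KO51 and by -0.95, -0.81 and -1.14 in WT05, WT46 and WT48. The change was of a like size in every mouse, including WT05. How near the levels of the divergent neighbours are to each other depends on the length used, and is not read from these counts. The log2 ratio of Cd247 to Cd3e, chosen in the same way, was higher in DN4 in all 6 mice, by 0.38 to 1.32. That of Cd3g to Cd3e was lower in 5 of 6, by 0.74 to 1.08, and was 0.09 higher in WT05.

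**Figure D3:**
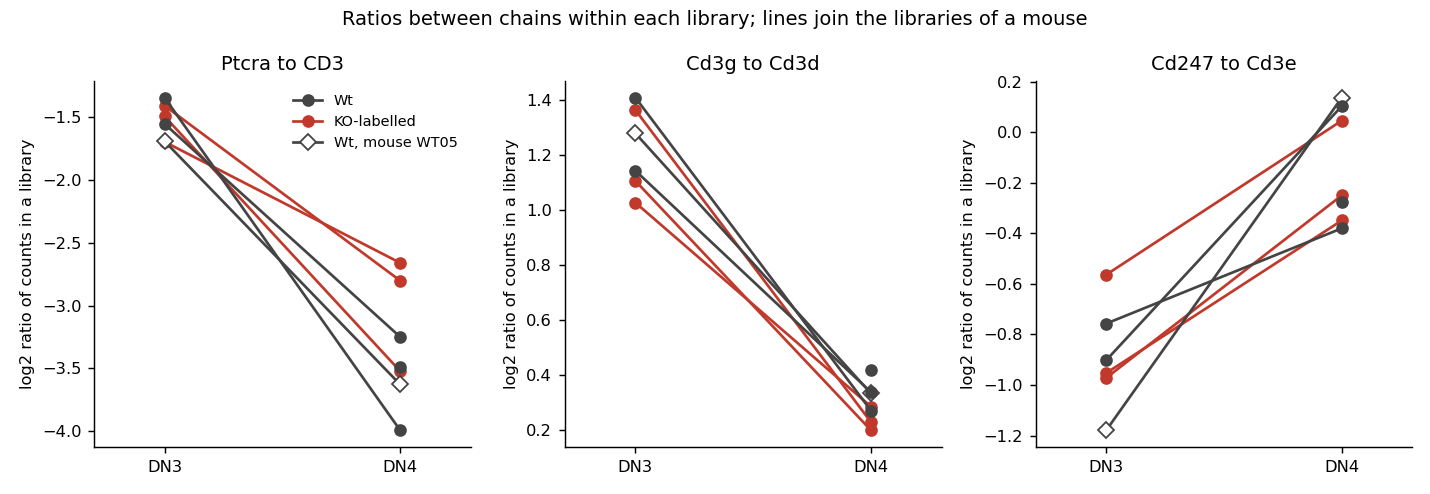
Log2 ratio of counts within each library (y axis, a scale of its own in each panel) at DN3 and DN4 (x axis), with lines joining the libraries of a mouse (grey, Wt; red, KO-labelled; open diamond, WT05; the unjoined point is WT40). Ptcra against the 4 other chains and Cd3g against Cd3d fall in all 6 mice, and Cd247 against Cd3e rises in all 6.

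Levels of different genes were set in order per kilobase of merged exons. In Wt DN3 cells the order was Cd3g at 229 ± 76.0, Cd3d at 169 ± 53.6, Ptcra at 95.9 ± 32.8, Cd3e at 85.7 ± 10.6 and Cd247 at 34.7 ± 8.87 CPM per kilobase (SD, n = 3). In KO-labelled DN3 cells the same order held, at 249 ± 23.4, 200.2 ± 22.0, 101 ± 12.8, 84.2 ± 4.11 and 36.4 ± 4.41 CPM per kilobase. Neighbours Cd3g and Cd3d overlapped between libraries in both genotypes, as did Ptcra and Cd3e. Cd3d and Ptcra overlapped in Wt only. Within each of the 3 libraries of each genotype Cd3g was higher than Cd3d. In Wt DN4 cells the order was Cd3d at 184 ± 25.0, Cd3g at 129.8 ± 22.3, Cd3e at 76.4 ± 15.1, Cd247 at 53.7 ± 3.10 and Ptcra at 22.3 ± 6.72 CPM per kilobase (n = 4). KO-labelled DN4 cells had that order too, at 189.8 ± 20.6, 124 ± 14.01, 76.6 ± 8.36, 52.1 ± 10.8 and 32.8 ± 7.61 CPM per kilobase. In DN4 the ranges of Cd3d and Cd3g overlapped in Wt, although Cd3d was higher within each of the 4 libraries, and no other neighbours overlapped in either genotype. By merged exons Ptcra thus went from level with Cd3e to the lowest of the set. The order depended on the length used, because the merged exons of Cd3e and Cd3g are much longer than their longest protein-coding transcripts (4080 against 1462 bases and 3269 against 1023 bases). With the latter, Cd3g stood first, Cd3e and Cd3d next, in all 4 groups, and Ptcra came after them in DN3 (101 and 95.9 CPM per kilobase in KO-labelled and Wt) and last in DN4. Cd3e was then at 235 and 239 CPM per kilobase in KO-labelled and Wt DN3.

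Of the summed per-kilobase level of the 5 chains, Ptcra made up 15.4% ± 1.03 in Wt DN3 (SD, n = 3) and 4.71% ± 0.887 in Wt DN4 (n = 4). In KO-labelled mice its share went from 15.04% ± 1.02 to 6.99% ± 1.89 (n = 3 each). The Cd3g share went from 36.9% to 27.8% in Wt and from 37.1% to 26.1% in KO-labelled mice. Shares of Cd3d (27.4% to 39.5% in Wt and 29.8% to 39.9% in KO-labelled mice) and of Cd247 (5.72% to 11.7% and 5.45% to 10.9%) were larger in DN4. No library of one stage reached the range of the other for these 4 chains. Cd3e shares overlapped between the stages in Wt, at 12.2–17.9% in DN3 and 13.7–17.4% in DN4, but not in KO-labelled mice, at 11.7–13.99% in DN3 and 15.5–17.1% in DN4. These shares depend on the length used. With the longest protein-coding transcript, a choice made after seeing the data, Ptcra made up 7.18% ± 0.506 in Wt DN3 and 2.30% ± 0.428 in Wt DN4, and 7.09% ± 0.458 and 3.50% ± 0.953 in KO-labelled mice. By that length the Cd3g share went from 54.9% to 43.4% and the Cd3d share from 14.3% to 21.7% in Wt, and the ranges of the stages again did not overlap for Ptcra, Cd3g, Cd3d and Cd247.

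Between KO-labelled and Wt mice, 0 of the 5 chains were called in DN3, where 0% of 12105 genes were called, and 0 of 5 in DN4, where 0.0535% of 13084 genes were called. In DN3, edgeR made 0 calls against 168 genes at an unadjusted p under 0.05, limma-voom made 0 and DESeq2 made 3. The DN3 log2 differences ran from -0.03 for Cd3e to 0.23 for Cd3d. The intervals bound what these libraries could miss: for Ptcra in DN3 the difference was 0.06 (95% interval -0.50 to 0.63, adjusted p = 0.99996), and for Cd3e it was -0.03 (-0.36 to 0.29). The intervals were -0.31 to 0.77 for Cd3d, -0.45 to 0.69 for Cd3g and -0.40 to 0.52 for Cd247. All of these fits include mouse WT05. When WT05 was left out, the DN3 differences were -0.18 for Ptcra, -0.13 for Cd3e and -0.0034 for Cd3d. They were -0.12 for both Cd3g and Cd247, and no chain was called. The SE of the Ptcra difference was then 0.136, against 0.246 in the full fit.

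In DN4, Ptcra had the largest genotype difference of the 5, at 0.58 (95% interval -0.02 to 1.19) and an adjusted p of 0.883. The KO-labelled libraries at 32.6, 41.6 and 52.1 CPM overlapped the Wt libraries at 17.9 to 36.9 CPM. The summed DN3-stage markers overlapped between the genotypes, at 737 to 1930.2 CPM in KO-labelled and 446 to 1057 CPM in Wt DN4 libraries. Among KO-labelled libraries the sum did not follow Ptcra, as KO45 had the highest sum and the least Ptcra. Among Wt libraries WT48 had the lowest of both. Il2ra, one of these markers, differed by 0.69 (adjusted p = 0.883). The summed mature T cell markers did not overlap, at 188 to 306 CPM in KO-labelled and 314 to 544 CPM in Wt DN4 libraries. The part of any of these markers in the Ptcra difference was not tested. The 4 CD3 and CD247 transcripts differed by -0.03 to 0.08 on the log2 scale, each with an interval within -0.41 to 0.44. The log2 ratio of Ptcra to the other chains was 0.60 higher in KO-labelled than in Wt DN4 libraries (exact two-sided permutation test, p = 0.143, with 0.0286 the smallest possible), and differed by -0.003 in DN3 (p = 0.9, smallest possible 0.1). The interaction of stage and genotype, which asks whether the fall of Ptcra differed between the genotypes, was 0.48 (95% interval -0.36 to 1.33, adjusted p = 0.999957), or 0.74 without the DN3 library of WT05 and 0.27, 0.30 and 0.32 without the DN3 library of WT48 and the DN4 libraries of KO51 and WT48. For the interaction, 0 of the 5 chains and 0% of 13361 genes were called. Unadjusted, 480 genes were under 0.05 in that test, and DESeq2 called 2 genes and limma-voom 0. The 2 Wt mice WT40 and WT46 had Y-linked transcripts and the other 5 mice, including all KO-labelled ones, did not, so genotype and sex are not balanced.

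The levels of other cells' marker genes varied between the DN4 libraries, and Ptcra levels were set beside them. The summed level of the B-cell markers was 2877 CPM in WT48 and 1506 CPM in WT05, the Wt libraries with the least Ptcra (17.9 and 25.7 CPM). It was 419 and 315 CPM in WT46 and WT40, at 36.9 and 34.1 CPM of Ptcra. Among KO-labelled libraries it was 988, 1711 and 226 CPM in KO45, KO49 and KO51, at 32.6, 41.6 and 52.1 CPM of Ptcra, so that KO49, with more B-cell signal than WT05, had the second highest Ptcra level of the 7 libraries. Markers of ISP and DP cells were lowest in WT48 (385 CPM) and WT05 (649 CPM) and highest in KO45 (2999 CPM). Without the DN4 libraries of WT05 and WT48, the log2 change of Ptcra in Wt was -1.82 (adjusted p = 0.0159), and without those of KO45 and KO49 it was -1.32 in KO-labelled mice (adjusted p = 0.00959). The Wt calls of Cd3g and Cd247 were lost without WT05 and WT48 (adjusted p = 0.216 and 0.139) at log2 values of -0.68 and 0.63. With the B-cell marker level as a covariate, the genotype difference of Ptcra in DN4 was 0.56 (adjusted p = 0.248), and with the ISP and DP marker level it was 0.50 (adjusted p = 0.979).

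**Figure D4:**
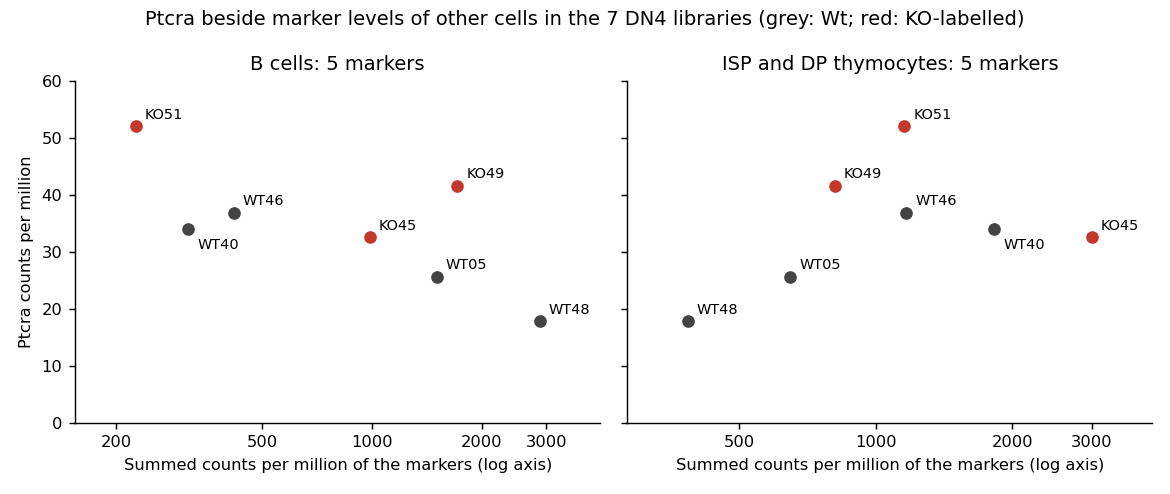
Ptcra level (y axis, CPM, from 0) against the summed CPM of 5 B-cell markers (left) and of 5 ISP and DP markers (right; log x axes) in the 7 DN4 libraries (grey, Wt; red, KO-labelled). WT48 and WT05 have the least Ptcra, with B-cell sums of 2877 and 1506 CPM and the lowest ISP and DP sums.

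Across all 13 libraries the log2 CPM of Ptcra and Cd3g had a Pearson correlation of 0.918, which includes the difference between stages that both share. Taken as deviations from the group means, the correlation was 0.793, and 0.639 without the DN3 library of WT05. Cd3d and Cd3g, the divergent neighbours, had 0.933 on deviations and 0.813 without that library. All libraries share the scaling, and the correlations are descriptions without a test. The 3 genes most like Ptcra among 9242 genes of at least 10 CPM were Prss57 (r = 0.990), Nmnat3 (0.979) and Ndrg1 (0.977). Ndrg1 (0.952), Lta4h (0.942) and Fut8 (0.942) were most like Cd3g, so that Ndrg1 stood on both lists. Tbc1d22b (0.969), Sh2d2a (0.968) and Cd27 (0.967) were most like Cd247. For Cd3e they were Zfp64 (0.876), Pop4 (0.841) and Tedc2 (0.838). Mpc2 (0.944), Atp6ap2 (0.928) and Psmd10 (0.908) were most like Cd3d, at 0.813, 0.769 and 0.652 without the DN3 library of WT05.

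The chains that pair with the CD3 subunits were taken from the constant regions of the T cell receptor loci. From DN3 to DN4, 2 of the 8 rose and 3 fell in Wt, while KO-labelled mice had 2 higher and 4 lower (all genes: 13.4% higher and 9.43% lower in Wt, 11.2% and 7.34% in KO-labelled mice). In Wt, 1 rose and 1 fell with library totals in place of TMM, and likewise without the DN3 library of WT46 or WT48 or the DN4 library of WT05, and 1 rose and 3 fell without the DN3 library of WT05. In KO-labelled mice the count that rose was 1 in 5 of the 6 fits that left out a library, and stayed at 2 without the DN4 library of KO49. Without the 2 DN4 libraries of each genotype that were richest in B-cell markers, 1 rose and 4 fell in Wt and 1 rose and 3 fell in KO-labelled mice. Trac, the constant region of the α chain that replaces pre-Tα, rose by 4.83 in Wt (adjusted p = 0.000435) and 3.82 in KO-labelled mice (adjusted p = 0.000431) on the log2 scale. The γ constant regions Tcrg-C3, Tcrg-C2 and Tcrg-C1 fell, with log2 changes of -2.20, -1.45 and -1.34 in Wt and -2.15, -2.08 and -2.03 in KO-labelled mice. Near-identical γ segments can share reads, so the split between them is uncertain. In Wt, leaving out the DN3 library of WT46 or WT48 or the DN4 library of WT05 took Tcrg-C2 to adjusted p = 0.0563, 0.0622 and 0.0538. Leaving out any of those libraries, or the DN4 library of WT40 or WT46, ended the call of Tcrg-C1, at adjusted p = 0.0907, 0.103, 0.0784, 0.0632 and 0.0689. Trbc1, one of the constant regions of the β chain partner of pre-Tα, had a log2 difference of 0.13 in Wt and 0.30 in KO-labelled mice, neither past the threshold. Trbc2, the other, rose by 0.52 in KO-labelled mice (adjusted p = 0.0278) and differed by 0.41 in Wt (adjusted p = 0.190). In the 5 KO-labelled fits above in which 1 gene rose, Trac kept its call and Trbc2 lost it. Trbc1 and Trbc2 were named after their values were seen, and near-identical copies make the split between them uncertain. Of the 4 other adaptor chains with ITAMs, 3 rose in Wt and 2 in KO-labelled mice (all 4 with the mouse as a paired block), or 2 and 1 without the B-cell-rich libraries, beside 13.4% and 11.2% of all genes. In KO-labelled mice 1 rose without the DN3 library of KO49 or KO51. They were led by Cd79a (6.63 and 7.94 on the log2 scale) and Cd79b (2.94 and 2.83), which belong to the B cell receptor and are also among the B-cell markers whose sum is given above. Without the 2 DN4 libraries richest in B-cell markers, Cd79a was at 4.80 and 5.72 and Cd79b was at 1.32 in Wt and 0.99 in KO-labelled mice (adjusted p = 0.0528 and 0.144). Its call was also lost without the DN3 library of WT05, WT46 or WT48 or the DN4 library of WT05 (adjusted p = 0.0621, 0.0591, 0.0733 and 0.0605) and, in KO-labelled mice, without the DN3 library of KO49 or KO51 (0.0669 and 0.0597). Fcer1g, the Fc receptor γ chain, rose by 2.36 in Wt and had a difference of 1.27 in KO-labelled mice (adjusted p = 0.117, or 0.0396 with the mouse as a paired block). It is also expressed by NK and innate lymphoid cells, whose markers were higher in every DN4 than in every DN3 library, as given above, and their part in the Fcer1g values was not tested.

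Of 15 kinases and adaptors just below the receptor, 6 rose and 1 fell in Wt, where 13.4% of all genes rose and 9.43% fell, and 5 rose and 1 fell in KO-labelled mice, where 11.2% rose and 7.34% fell. With library totals, 5 rose and 0 fell in Wt. Without the B-cell-rich libraries, 4 rose in each genotype, and 1 fell in Wt and 0 in KO-labelled mice. Their median log2 fold change was 0.36 and 0.29, against -0.03 and -0.02 over all genes. Fyn, a SRC family kinase that phosphorylates ITAMs, rose by 1.41 and 1.08 in Wt and KO-labelled mice. Prkcq (protein kinase C θ) rose by 1.37 and 1.05, and Zap70, the kinase recruited to phosphorylated CD3 and ζ tails, by 1.22 and 0.97. For Lck itself the log2 difference was -0.33 in Wt mice and 0.01 in the KO-labelled group. Syk, the ZAP70 relative, stood at 0.84 and 0.72, and none of these 4 values passed the threshold. These genes are named beyond the rule for their place beside Zap70.

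Of 11 genes that restrain the receptor or carry it to degradation, 4 rose and 2 fell in each genotype, beside all-gene shares of 13.4% and 9.43% in Wt and 11.2% and 7.34% in KO-labelled mice. In KO-labelled mice 0 fell when the DN3 library of either KO45 or KO49 was left out, and 1 when the DN4 library of KO49 or KO51 was. In Wt 3 rose and 0 fell with library totals, where Pag1 was at -0.71 (adjusted p = 0.0721), and 1 fell without the DN3 library of WT46 or WT48 or the DN4 library of WT05, WT46 or WT48. The counts that rose and fell were 4 and 1 in Wt and 2 and 1 in KO-labelled mice without the B-cell-rich libraries. Laptm5, a lysosomal protein that lowers CD3ζ, rose by 1.41 in Wt and 1.04 in KO-labelled mice. Sla (SLAP), an adaptor that directs the receptor to CBL in thymocytes, rose by 1.24 and 1.14, and the phosphatase gene Ptpn6 (SHP-1) by 1.12 and 0.94 (0.68 in KO-labelled mice without the B-cell-rich libraries, adjusted p = 0.0507). Pag1, which anchors the inhibitory kinase CSK at the membrane, fell, with log2 changes of -0.94 and -0.77. The KO-labelled call of Pag1 was lost without the DN3 library of KO45 or KO49 or the DN4 library of KO49 (adjusted p = 0.0533, 0.0671 and 0.0731).

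Of 16 transcription factors described at Ptcra or CD3 regulatory elements, 15 were tested. In Wt 3 rose and 4 fell, and in KO-labelled mice 3 rose and 2 fell (4 and 5 with the mouse as a paired block, a fit that called 4899 genes in place of 2338). With library totals, 2 rose and 2 fell in each genotype. Of all genes, 13.4% rose and 9.43% fell in Wt and 11.2% and 7.34% in KO-labelled mice. In KO-labelled mice 1 rose without the DN3 library of KO49 or KO51, and 2 rose and 4 fell without the DN4 library of KO45. Without the B-cell-rich libraries, 2 rose and 4 fell in Wt, and 1 rose and 3 fell in KO-labelled mice, where 16 were tested. Notch1, whose signal sustains Ptcra transcription, fell by 2.12 in Wt (adjusted p = 0.000233) and 1.42 in KO-labelled mice (adjusted p = 0.00139). Runx1 fell by 1.46 and 1.18. The E-protein inhibitor Id3 rose by 1.79 and 1.42 (adjusted p = 0.00408 and 0.000377). Id2, a second inhibitor of the same class, rose by 1.84 in Wt and had a difference of 1.42 in KO-labelled mice (adjusted p = 0.0526). The latter passed by DESeq2 (0.00537), by limma-voom (0.0361), without a filter on low counts (0.00596) and in 1 fit of all 13 libraries (0.0120). It also passed with the mouse as a paired block (0.0011) and without the DN3 library of KO45 (0.00977) or the DN4 library of KO51 (0.0474). The E-protein genes themselves, Tcf3 and Tcf12, had log2 differences of -0.14 and -0.34 in Wt and -0.09 and -0.18 in KO-labelled mice, none past the threshold, and were named after their values were seen.

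Of 14 genes known to be induced by pre-TCR signals, 10 rose and 1 fell in Wt and 9 rose and 2 fell in KO-labelled mice, beside 13.4% higher and 9.43% lower of all genes in Wt and 11.2% and 7.34% in KO-labelled mice, with a median log2 fold change of 2.41 and 2.38. Without the B-cell-rich libraries, 9 rose in each genotype, and 1 fell in Wt and 0 in KO-labelled mice. The KO-labelled count that fell was also 0 without the DN3 library of KO51, and 1 without the DN3 or the DN4 library of KO49. Egr3 and Egr2, early growth response factors downstream of the receptor, rose by 5.07 and 3.81 in Wt and by 4.33 and 3.58 in KO-labelled mice. Their DN3 levels were near the floor, at 0.354 to 1.17 CPM for Egr3 and 0.878 to 2.16 CPM for Egr2. Without the B-cell-rich libraries, Egr3 was at 4.30 in Wt and 3.32 in KO-labelled mice (adjusted p = 0.00317 and 0.0112). Nab2, the corepressor of EGR proteins, rose by 2.96 and 2.58, and the surface receptor gene Cd5 by 2.75 and 2.55. Myc fell in both genotypes, with log2 changes of -0.98 in Wt and -0.96 in KO-labelled mice (adjusted p = 0.00755 and 0.0248). With library totals 9 genes of the list rose and 0 fell in Wt, so that the Wt call of Myc was lost. Tfrc, the transferrin receptor gene, fell by 0.70 in KO-labelled mice (adjusted p = 0.0160) and differed by -0.42 in Wt, and Slc3a2 differed by 0.04 and 0.01. These 3 genes were chosen after their values were seen. In none of the 6 lists was a gene called between the genotypes in DN3, in DN4 or for the interaction. Egr3 was not tested between the genotypes in DN3.

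**Figure D5:**
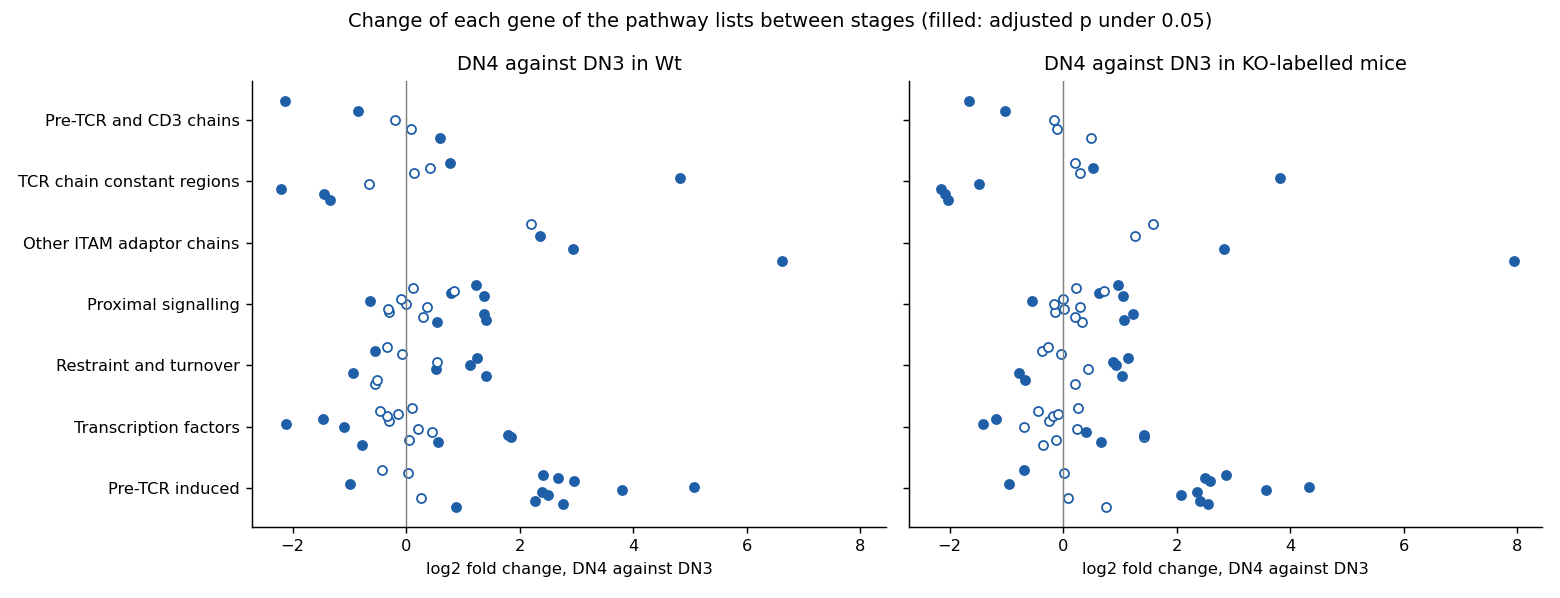
Log2 fold change from DN3 to DN4 (x axis) of each tested gene of the chains and of 6 pathway lists (y axis), in Wt (left) and KO-labelled mice (right); filled points have an adjusted p under 0.05 in edgeR's quasi-likelihood test. Ptcra is the leftmost of the 5 chains at -2.13 and -1.65, and 10 and 9 of the 14 genes induced by pre-TCR signals lie to the right as filled points.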

How the data were processed

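RNA of sorted DN3 and DN4 thymocytes was measured in 13 libraries of 7 mice. The authors made the deposited table of raw counts per gene from stranded mRNA libraries, trimming with Cutadapt, mapping with STAR and counting with featureCounts, and their processing notes name mm10; versions, the annotation release and the strand setting are not given in the sources used here. Columns were mapped to samples by name, with 0 unused columns. Of 47937 gene identifiers, 47310 matched GENCODE M21 without their version.

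Counts were fitted with the quasi-likelihood F-test of edgeR 4.0.16 (R 4.3.3), on the groups of each comparison (all 4 groups for the interaction), with filterByExpr (minimum count 10), TMM scaling and adjustment by Benjamini and Hochberg over all genes, called under 0.05. SEs are the absolute log2 fold change over the root of F. CPM are per library size times the TMM factor. Ratios used raw counts with 0.5 added and exact permutation tests. Alternatives were DESeq2 1.42.0, limma-voom 3.58.1, other scalings and filters, 1 fit of all 13 libraries, the mouse as a replicate block, and leaving out each library. Fits leaving out the libraries richest in B-cell markers, fits with marker covariates, and the coding-transcript length were added after seeing the data. The steps were tested on simulated counts for 12495 genes of the Wt stage comparison, where 84.8% of 4-fold and 39.2% of 2-fold changes were called. Only 99 of those genes were changed 4-fold and 97 2-fold, a smaller share than was called in the data. These rates check the steps and do not give the power of the Wt fit.

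The numbers in the sample names were read as mouse numbers, so both libraries of a number were taken to come from 1 mouse. Deviations of paired libraries from their group means correlated at 0.124 to 0.460 over 13361 genes. No replicate pair was a duplicate. Libraries held 5926848 to 14148661 counts, and 3 or 4 libraries a group limit the precision. The members and lists were chosen with earlier results of these data known. Named were the 5 chains, up to 4 genes per list with the largest called Wt change between stages, the 3 genes most like each chain, Opa1 and Il2ra; a gene that the rule names among the kinases and adaptors is not reported here. Promoter sequences are from RefSeq (GRCm38.p6); protein sequences were not used here.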

Additional observations from a re-analysis of the deposited data

Results flagged for a closer look

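Of 24 groups of 4 or 6 values examined for a sample far from the rest, 3 held one, all in mouse WT05, where chance alone sets about 1 in 20 apart. In DN4 of WT05 the log2 ratio of Cd3d to Cd3e counts was 0.42, against -0.01 to 0.02 in the other 3 Wt DN4 libraries. Its change from DN3 to DN4 in that mouse was 1.04, against -0.03 to 0.22 in the other 5 mice. The log2 ratio of Cd3g to Cd3e changed by 0.092 in WT05 and by -1.08 to -0.74 in the others. In the DN3 library of the same mouse 41.7% of counts fell on 8 genes, as given above, and the part of this in the ratios was not tested.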

How the results depend on the processing

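Ptcra was called lower in DN4 in all 16 alternative fits in Wt (log2 -2.38 to -1.82) and all 15 in KO-labelled mice (-1.85 to -1.32), and Cd3g in all 15 in KO-labelled mice (-1.14 to -0.96). In Wt the 3 called chains became 1 (Ptcra) with library totals, with the mouse as a replicate block, and without the 2 DN4 libraries richest in B-cell markers, and 1 to 3 when a single library was left out. The KO-labelled count was 2 without any single library, and the counts of called chains between genotypes and for the interaction were 0 in every fit. With the mouse as a paired block the KO-labelled stage comparison called 4899 genes against 2338 (2602 in Wt), and Cd247 was among them.

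The fall of the Ptcra ratio within mice was -1.94 to -1.6 without any single mouse; without the pairing it was -1.46 in KO-labelled libraries alone (exact permutation p = 0.1, the smallest that 3 against 3 allow). The genotype difference of this ratio in DN3 was 0.15 with Cd3e alone as the denominator and -0.084 to 0.090 without single libraries, and in DN4 0.43 to 0.86.

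Signs turned for differences that were called in no fit. With library totals, Cd3e was at 0.17 and Opa1 at 0.16 between genotypes in DN3, Cd247 at 0.0034 in DN4 and Cd3e at -0.13 for the interaction. Without the B-cell-rich libraries the Wt stage difference of Cd3e was 0.038, and with the ISP and DP covariate Cd3e and Cd3d were at -0.11 and -0.063 between genotypes in DN4. Leaving out single libraries gave -0.16 to 0.24 for Cd3d between stages in Wt. Between genotypes in DN3 it gave -0.18 to 0.28 for Ptcra, -0.13 to 0.026 for Cd3e, -0.0034 to 0.38 for Cd3d, -0.12 to 0.34 for Cd3g and -0.12 to 0.22 for Cd247. In DN4 the ranges were -0.065 to 0.14 for Cd3e, -0.030 to 0.16 for Cd3d, -0.16 to 0.066 for Cd3g and -0.20 to 0.13 for Cd247, and for the interaction -0.059 to 0.14, -0.34 to 0.063, -0.41 to 0.069 and -0.29 to 0.090 for Cd3e, Cd3d, Cd3g and Cd247. The cause was not tested. Of 400 alternative values of the chains 342 kept direction and side of the threshold, and of 765 of the other named genes 731 did. Genes called between genotypes in DN4 were 7, 51 by DESeq2, 34 with the B-cell covariate, 11 without a filter and 0 to 8 without single libraries; in DN3 they were 0, but 3 by DESeq2 and 1 without a filter. The count of genes called between stages in Wt was 2903, against 1782 with library totals and 1766 in the fit without the B-cell-rich libraries. Leaving out the DN4 library of WT05 gave 1845 in Wt, and the DN3 library of KO49 or KO51 or the DN4 library of KO49 gave 1407, 1458 and 1522 in KO-labelled mice. Library totals moved the median log2 difference of all genes between genotypes in DN3 to 0.23. Fold changes of the genes most like each chain are not reported and were not recomputed. The lowest count of a chain was 176, for Ptcra in DN4 of WT48, and each group had 3 or 4 mice. The part of depth and of mouse number in the width of the intervals was not tested.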
